A study of Homo sapiens with 16 samples.

Results

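The genes that start mitosis through cyclin and CDK1 were followed in A549, a long-established line of human lung adenocarcinoma cells, after irradiation with carbon ions (C12) or X-rays. Out of 18334 named genes on the arrays, 10 were chosen by name for their role in this switch. Earlier results of these data were known when the 10 genes were chosen. They were the cyclins CCNA2, CCNB1 and CCNB2, the kinase CDK1, the activating phosphatases CDC25B and CDC25C, the small CDK-binding subunits CKS1B and CKS2, and the inhibitory kinases WEE1 and PKMYT1. All 10 were measured, by 33 features (array spots) in total. CDK1 had 11 features, CCNA2 had 10, CKS1B had 3, CCNB2 and PKMYT1 had 2 each, and the remaining 5 genes had 1 feature each, so that CCNB1, CDC25B, CDC25C, CKS2 and WEE1 each rested on a single spot.

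Cultures of A549 were each divided into a plate that was irradiated and a control plate, and RNA from both plates was hybridised to the same Agilent array in the dyes Cy3 and Cy5. There were 4 arrays in each of 4 groups, namely C12 at 1h, C12 at 4h, X-rays at 1h and X-rays at 4h, each against the control plates of its own cultures. C12 is a densely ionising particle beam, here scanned over a spread-out Bragg peak, and the X-rays came from a clinical linear accelerator. The labels describe 16 independent cultures and also RNA of 2 experiments pooled before labelling, and all groups used 1 cell line. Their radiation dose is not given by any source used here, and C12 and X-rays cannot be set against each other at matched dose.

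Values are log2 ratios of the irradiated over the control plate, where -1 means a halving in the irradiated plate. That direction is a likely one and not settled by the labels. C12 arrays with the same labelled dye had deposited ratios whose r across features ran from -0.869 to 0.853, with a median of -0.831. For X-ray arrays with the same labelled dye, r ran from -0.363 to 0.310, with a median of 0.027. The strongly negative median was thus seen in the C12 arrays only. Replicates 1 and 2 of every group were multiplied by -1. This rule was chosen with the values known, among them the rise of DNA damage response genes. If the ratios run the other way, every rise given here is a fall and every fall a rise of the same size. When the ratios were instead read as deposited, or turned by the labelled dye alone, 0 of the 10 genes passed the test in any group. Every call below rests on that rule. Nothing in a ratio gives the level of a gene, so markers of epithelial and other cell types could be checked for change between plates only. Fewer cells in a cell cycle phase and less RNA per cell cannot be told apart in such bulk RNA.

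CDK1 bound to cyclin A or cyclin B drives cells from G2 phase into mitosis. WEE1 and PKMYT1 hold the kinase inactive by phosphorylating it, and CDC25 phosphatases remove those phosphates. CKS proteins dock on CDK1 and help it act on substrates that are already phosphorylated. After DNA damage the G2 checkpoint blocks this switch, and in many cells the CDK inhibitor CDKN1A (p21) is linked to lower transcription of G2/M genes through the DREAM repressor complex, which binds a promoter element called CHR, often paired with CCAAT boxes bound by NF-Y.

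Promoter sequences are shown because 4 of these genes fell at 4h after X-rays and because CHR and CCAAT letters can be read in them. RefSeq promoter windows on GRCh38.p14 were found for 8 of the 10 genes (15 windows, since some genes have several starts). WEE1 and PKMYT1 are named only. The windows printed for CDC25C (1 of 4) and CDK1 (1 of 2) were picked for motifs near the start, and 2 of the 4 CDC25C windows held no motif. CDC25B, with 4 windows of which 1 held no motif, is not printed. Each stretch has 170 bases, up to 20 past the start. Capitals mark CHR letters (the form TTTGAA, the variant TTCGAA or the variant TTTAAA) and CCAAT, on either strand, so that TTCAAA and ATTGG are the same motifs read from the other strand. The CHR forms TTCGAA and TTTAAA read the same on both strands, and no searched motif contains another.
CCNB1: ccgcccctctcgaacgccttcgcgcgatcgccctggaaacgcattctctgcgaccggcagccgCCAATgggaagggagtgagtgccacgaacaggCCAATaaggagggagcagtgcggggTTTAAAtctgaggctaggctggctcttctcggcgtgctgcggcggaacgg
CKS2: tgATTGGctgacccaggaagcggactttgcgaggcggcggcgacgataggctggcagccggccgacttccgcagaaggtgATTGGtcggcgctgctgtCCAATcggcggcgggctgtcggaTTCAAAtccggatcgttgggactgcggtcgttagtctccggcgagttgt
CDC25C: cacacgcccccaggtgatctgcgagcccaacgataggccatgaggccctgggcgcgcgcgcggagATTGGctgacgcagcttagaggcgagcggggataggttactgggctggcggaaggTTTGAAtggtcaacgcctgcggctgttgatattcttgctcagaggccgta
CCNA2: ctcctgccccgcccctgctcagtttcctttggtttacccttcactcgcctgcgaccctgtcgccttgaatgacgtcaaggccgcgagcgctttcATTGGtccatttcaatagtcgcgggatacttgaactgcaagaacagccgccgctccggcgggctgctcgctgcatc
CCNB2: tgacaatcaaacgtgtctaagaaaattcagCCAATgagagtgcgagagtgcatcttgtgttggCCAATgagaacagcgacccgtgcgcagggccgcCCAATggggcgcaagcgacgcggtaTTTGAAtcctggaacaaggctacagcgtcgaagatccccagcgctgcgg
CKS1B: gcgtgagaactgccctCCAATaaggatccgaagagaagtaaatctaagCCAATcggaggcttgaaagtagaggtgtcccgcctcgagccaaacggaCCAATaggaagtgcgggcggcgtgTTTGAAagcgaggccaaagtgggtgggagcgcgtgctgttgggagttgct
CDK1: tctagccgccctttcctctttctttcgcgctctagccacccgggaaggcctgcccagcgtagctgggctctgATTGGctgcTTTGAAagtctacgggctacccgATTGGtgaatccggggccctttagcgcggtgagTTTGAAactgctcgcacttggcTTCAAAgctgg

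The stretches lie at chr5:69167000-69167169 (plus strand) for CCNB1, chr9:89311045-89311214 (plus) for CKS2, chr5:138331785-138331954 (minus) for CDC25C, chr4:121823864-121824033 (minus) for CCNA2, chr15:59104996-59105165 (plus) for CCNB2, chr1:154974531-154974700 (plus) for CKS1B, and chr10:60778328-60778497 (plus) for CDK1. A CHR form began at position -30 from the start in CCNB1 (TTTAAA), CDC25C and CKS1B (both TTTGAA), and at -29 in CCNB2 and CKS2. In the printed CDK1 window TTTGAA began at -69, -13 and 10, and in its other window TTTGAA began at -161 and TTTAAA at -131. The printed CCNA2 stretch held none of the 3 CHR forms searched and 1 CCAAT, at -56. Other CHR variants were not searched, so this does not show that CCNA2 lacks the element. Among the 8 genes, 7 held any of the 3 searched CHR forms in some window, against 25.1% of the 35116 windows in the table. CCAAT was found in 8 of 8 genes against 34.6% of windows, and 6 of 8 genes had a window with 2 or more CCAAT against 10.8%. Genes with several windows had more chances to hold a motif than a single window. TTTGAA was in 5 genes (15.2% of all windows), TTTAAA in 4 (12.2%) and TTCGAA in CDC25B alone (1.45%). These matches describe letters in a window and no binding was measured here.

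At 4h after X-rays, 4 of the 10 genes fell, 0 rose and 6 did not pass the test (limma on all 16 arrays, Benjamini-Hochberg adjusted p under 0.05 over 18334 genes). The 4 were CKS2, CCNB1, CCNA2 and CDC25C, with falls between 1.64-fold and 2.22-fold. Of all genes, 8 fell (0.0436%) and 96 rose (0.524%). The estimate was negative for 9 of the 10 genes. Their median group mean was -0.42, against 0.00073 over all genes.

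CKS2, the CDK-binding subunit on chromosome 9, had the lowest estimate of all genes at 4h after X-rays. Its 4 arrays gave log2 ratios of -1.26, -0.66, -1.49 and -1.19. All lay below 0, with replicate 2 the least low. The fitted change was -1.15 ± 0.20 (SE, n = 4, 95% interval -1.58 to -0.72, adjusted p = 0.0107), a 2.22-fold fall. At 1h after X-rays the arrays were -0.77, -0.83, -0.11 and 0.50. These overlapped the 4h arrays through replicates 1 and 2. CKS2 was measured by 1 feature.

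CCNB1, the B-type cyclin that accumulates in G2, gave -0.52, -0.83, -1.14 and -0.85 at 4h after X-rays. All 4 arrays were below 0, and replicate 3 was lowest. The fitted change was -0.83 ± 0.14 (SE, n = 4, interval -1.14 to -0.53, adjusted p = 0.00879), a 1.78-fold fall. At 1h after X-rays CCNB1 stood at 0.50, -0.86, -0.60 and 0.56. Both arrays with the irradiated plate in Cy5 were above 0 there and both in Cy3 were below, and the range overlapped that at 4h. The related cyclin CCNB2 gave -0.50, 0.18, -0.40 and -0.13 at 4h, with replicate 2 above 0, and its estimate of -0.21 ± 0.13 (SE, n = 4) did not pass (adjusted p = 0.853).

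CCNA2, the cyclin that serves both S phase and mitotic entry, gave -0.58, -0.65, -1.01 and -0.73 at 4h after X-rays. At 1h it gave 0.33, -0.57, -0.46 and -0.07. All 4 arrays at 4h lay below all 4 at 1h, though the nearest pair was only -0.58 against -0.57. That order was seen in 0.262% of all genes, and in CCNA2 alone among the 10. With the fitted dye term removed the groups overlapped, with replicate 2 at 4h at -0.348 and replicate 4 at 1h at -0.371. The fitted change at 4h was -0.74 ± 0.12 (SE, n = 4, interval -1.0 to -0.49, adjusted p = 0.0054), a 1.67-fold fall and the smallest adjusted p of the 10 genes.

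CDC25C, a phosphatase that activates CDK1 with cyclin B, gave -0.53, -0.57, -0.74 and -1.02 at 4h after X-rays. At 4h after C12 it gave -0.28, 0.43, -0.47 and 0.26. All 4 X-ray arrays were below all 4 C12 arrays, an order seen in 0.191% of all genes and in CDC25C alone among the 10. The fitted change after X-rays was -0.72 ± 0.14 (SE, n = 4, interval -1.01 to -0.42, adjusted p = 0.0212), a 1.64-fold fall. The second phosphatase, CDC25B, gave 0.37, 0.09, -0.83 and 0.08. Only replicate 3 was below 0, and the estimate of -0.07 ± 0.16 (SE, n = 4) did not pass (adjusted p = 0.9999).

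**Figure D1:**
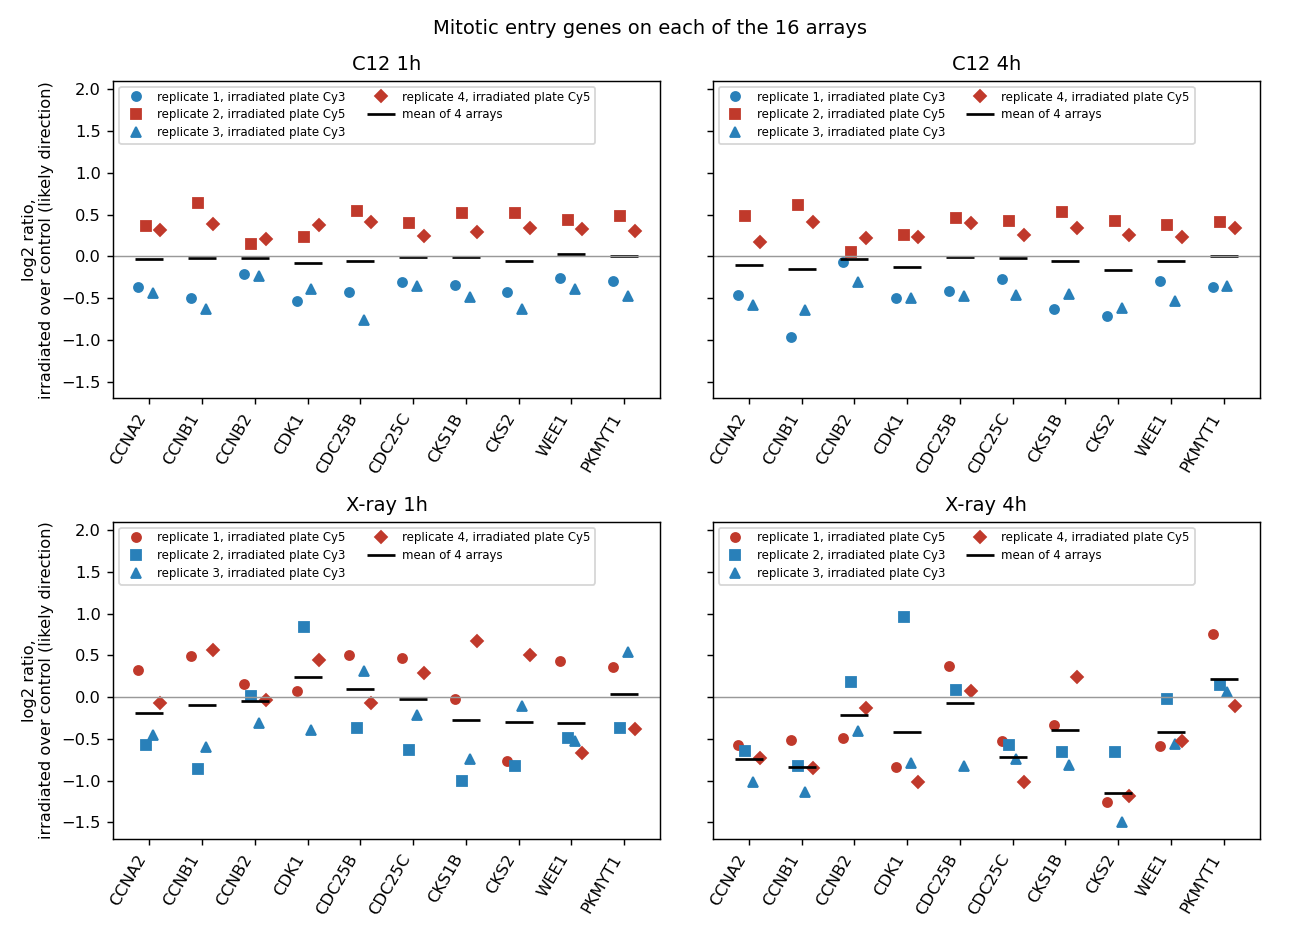
Log2 ratio of irradiated over control plate (likely direction, vertical axis) for each of the 10 genes (horizontal axis), with 1 panel per group, 1 symbol per array coloured by the dye of the irradiated plate, and a bar for the mean of 4 arrays. At C12, after the sign rule, every Cy5 array lies above 0 and every Cy3 array below. At 4h after X-rays CCNA2, CCNB1, CDC25C, CKS2 and WEE1 lie below 0 on all 4 arrays, and CDK1 on replicate 2 stands at 0.96.

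CDK1, the catalytic kinase, gave -0.83, 0.96, -0.79 and -1.02 at 4h after X-rays. Replicates 1, 3 and 4 lay close together below 0, and replicate 2 lay far above. The estimate over all arrays was -0.42 ± 0.27 (SE, n = 4, interval -0.99 to 0.14, adjusted p = 0.866). Replicate 2 was also the high array at 1h, where CDK1 stood at 0.07, 0.84, -0.39 and 0.44. CDK1's standard error of 0.27 was the largest of the 10 genes.

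The estimates of the inhibitory kinases differed in sign, though neither passed. WEE1 gave -0.59, -0.02, -0.56 and -0.52 at 4h after X-rays, all below 0, with replicate 2 close to it. Its estimate of -0.42 ± 0.17 (SE, n = 4) did not pass (adjusted p = 0.587). PKMYT1 gave 0.75, 0.14, 0.06 and -0.11, and it was the one gene of the 10 with a positive estimate, 0.21 ± 0.18 (SE, n = 4, interval -0.16 to 0.58, adjusted p = 0.939). The PKMYT1 features differed in sign on replicates 2 (-0.03 and 0.31), 3 (-0.45 and 0.57) and 4 (0.38 and -0.60). Both had a mean above 0 (0.18 and 0.25). CKS1B, the second CKS subunit, gave -0.33, -0.66, -0.81 and 0.24, with replicate 4 above 0, and an estimate of -0.39 ± 0.13 (SE, n = 4, adjusted p = 0.395). On replicate 4 the CKS1B features gave 0.46, -0.31 and 0.58. The feature at -0.31 was below 0 on all 4 arrays. CKS1B and CKS2 encode similar proteins, and whether a feature takes up RNA of the other gene was not tested. In all, 5 of the 10 genes were below 0 on all 4 arrays at 4h after X-rays, against 2.9% of all genes.

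**Figure D2:**
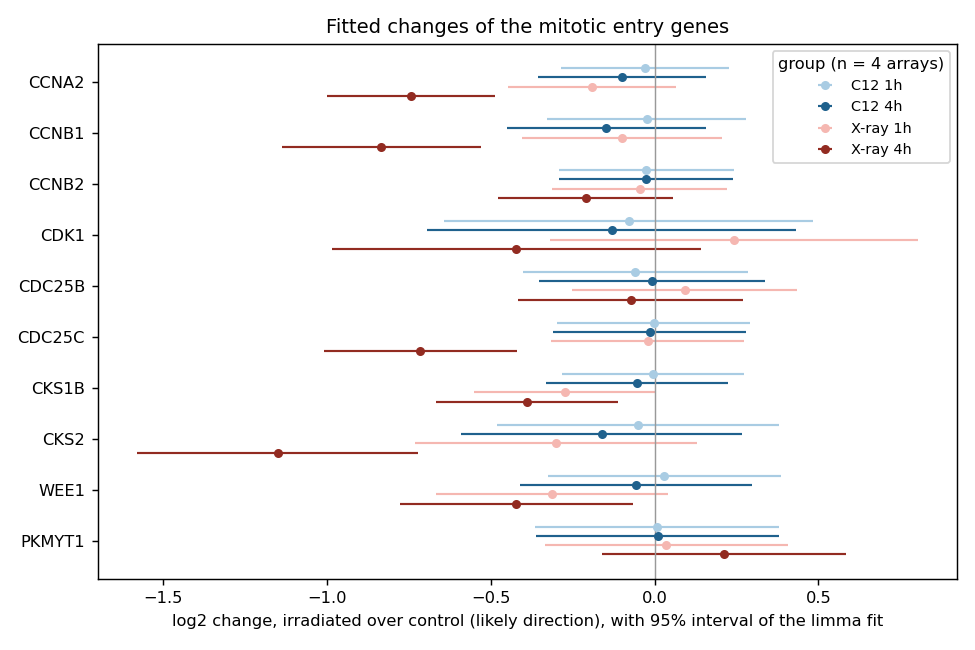
Fitted log2 change of the 10 genes (rows) in the 4 groups (colours, 4 arrays each), with points for the limma estimate and lines for its 95% interval, on a horizontal axis of irradiated over control in the likely direction. At 4h after X-rays the intervals of CKS2, CCNB1, CCNA2 and CDC25C lie well below 0, from an estimate of -1.15 for CKS2 to -0.72 for CDC25C, while the estimates after C12 lie between -0.16 and 0.03.

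The calls at 4h after X-rays depended on single arrays and on which other arrays were in the fit. With X-ray arrays alone in the fit, CKS2 alone of the 10 genes passed, where 3 of all 18334 genes fell. With the 4 arrays at 4h after X-rays alone in the fit, 4 of the 10 genes fell. Without replicate 2 of that group, 6 of the 10 genes fell, but so did 6.19% of all genes. The added genes were CDK1, at -0.95 ± 0.19 (SE, n = 3, adjusted p = 0.0094 by limma), and WEE1, at -0.64 ± 0.17 (SE, n = 3, adjusted p = 0.0275 by limma). Without replicate 1, CCNA2 alone passed (adjusted p = 0.0474 by limma). Without replicate 4, CCNA2 alone passed again (adjusted p = 0.0429), and without replicate 3 none of the 10 did. The estimates of CKS2, CCNB1, CCNA2 and CDC25C kept their sign under each of these 4 omissions, with CKS2 from -1.43 to -1.01 and CDC25C from -0.86 to -0.51.

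Replicate 2 at 4h after X-rays stood apart from the others of its group over all genes as well. After removal of the fitted dye term it correlated with replicates 1, 3 and 4 at r = -0.493, 0.0903 and -0.468 across genes, which are not independent replicates, while replicates 1, 3 and 4 correlated with each other at 0.109 to 0.453. It received a weight of 0.0837 when limma weighted arrays by quality, and under those weights none of the 10 genes passed. With 1 dye coefficient for each radiation quality in place of a shared one, the same 4 genes fell, beside 0.18% of all genes. With that change and without replicate 2 together, a setting chosen after seeing the data, 8 of the 10 fell, all but CDC25B and PKMYT1, and so did 8.75% of all genes.

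**Figure D3:**
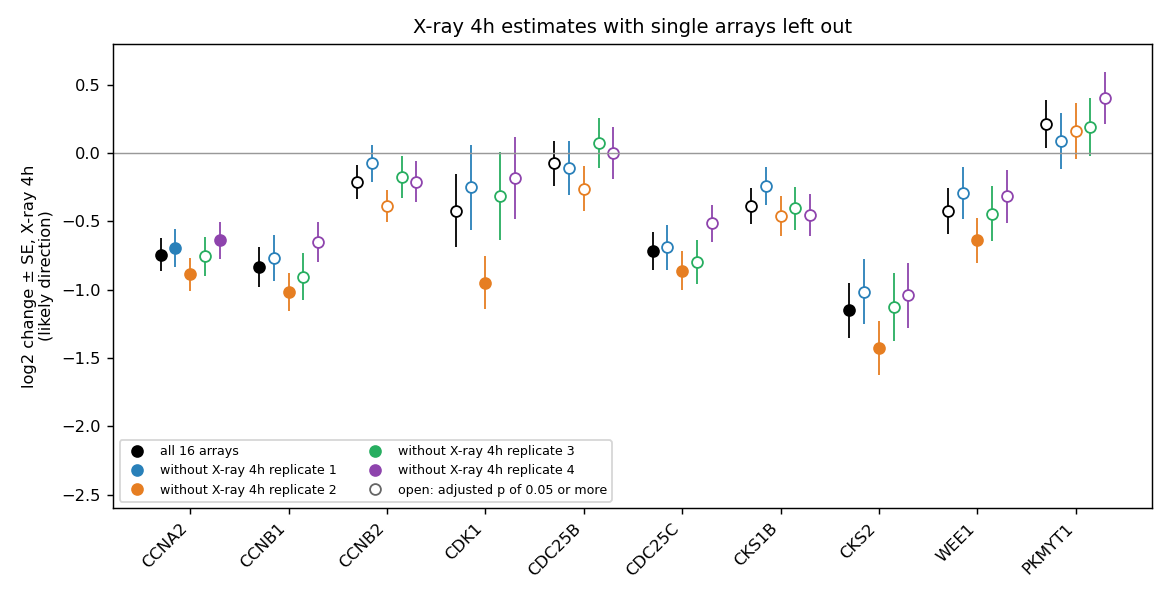
Estimated log2 change at 4h after X-rays with its standard error (vertical axis, likely direction) for the 10 genes, from all 16 arrays (black) and with each array of that group left out (colours); open symbols did not pass an adjusted p of 0.05. CDK1 moves from -0.42 to -0.95 when replicate 2 is left out, and CKS2, CCNB1, CCNA2 and CDC25C stay below -0.5 in every setting shown.

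Features of the same gene gave like values on C12 arrays and less so on some X-ray arrays. Over the 10 CCNA2 features the SD was between 0.0226 and 0.0717 on C12 arrays. On replicate 4 at 4h after X-rays it reached 0.568, where 3 features were above -0.2 and 6 below -1. The CCNA2 mean of -0.73 on that array therefore lies between separate sets of spots, and on replicates 1 to 3 of the group its features ran from -1.05 to -0.49. The CCNA2 features were also spread on replicate 4 at 1h after X-rays (SD 0.239, from -0.40 to 0.24), where the mean was -0.07. The 10 CDK1 features with a RefSeq mRNA accession were spread on replicate 3 at 1h (SD 0.281, from -0.66 to 0.28) and on replicate 4 at 4h (SD 0.220).

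CDK1's features carried its high array. The 10 with a RefSeq mRNA accession gave means of -0.89, 1.07, -0.88 and -1.10 at 4h after X-rays, and on replicate 2 all 10 lay between 0.94 and 1.13. The remaining CDK1 feature, annotated by another accession, gave -0.27, -0.17, 0.05 and -0.24, so it showed neither the fall nor the high array. CCNB2's features differed likewise. Its RefSeq mRNA feature gave -0.61, 0.09, -0.77 and -0.94 (mean -0.56), and the feature with another accession gave -0.38, 0.28, -0.04 and 0.69 (mean 0.14). With only RefSeq mRNA features averaged, a choice made after seeing the data, CCNB2's estimate was -0.56 ± 0.19 (SE, n = 4, adjusted p = 0.405 by limma), and the same 4 genes fell, beside 0.0436% of all genes.

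At 1h after X-rays none of the 10 genes passed, while 0.0491% of all genes did (limma, 472 genes at an unadjusted p under 0.05). Estimates ran from -0.31 ± 0.17 for WEE1 to 0.24 ± 0.27 for CDK1 (SE, n = 4). CKS2 stood at -0.30 ± 0.20 and CKS1B at -0.27 ± 0.13. WEE1 gave 0.43, -0.49, -0.52 and -0.67, with replicate 1 alone above 0. The median of the 10 group means was -0.07, and 7 of the 10 were negative.

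Between 1h and 4h after X-rays, the change itself passed for none of the 10 genes (0.0% of all genes by limma, adjusted p = 0.9998 for each, with 645 genes at an unadjusted p under 0.05). The difference was -0.85 (interval -1.46 to -0.24) for CKS2, -0.73 (-1.16 to -0.30) for CCNB1, -0.69 (-1.11 to -0.28) for CDC25C and -0.55 (-0.91 to -0.19) for CCNA2, and these 4 had an unadjusted p under 0.05. CDK1 differed by -0.66 with an interval that spans 0 (-1.46 to 0.13). Without replicate 2 at 4h, 5 of the 10 fell from 1h to 4h, against 2.83% of all genes. These were CDK1 (-1.19, adjusted p = 0.0251), CKS2 (-1.13), CCNB1 (-0.92), CDC25C (-0.84) and CCNA2 (-0.70). With 1 dye coefficient per quality as well, 5 of the 10 fell from 1h to 4h, against 5.53% of all genes.

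After C12, none of the 10 genes passed at 1h (0.0% of all genes, 29 at an unadjusted p under 0.05) or at 4h (0.0109% of all genes, 44 unadjusted, limma). At 4h the estimates ran from -0.16 (interval -0.59 to 0.27) for CKS2 to 0.01 (-0.36 to 0.38) for PKMYT1. At 4h after X-rays the CKS2 estimate was -1.15 (-1.58 to -0.72). The difference between C12 and X-rays itself did not pass for CKS2. CCNB1 had -0.15 (-0.45 to 0.16) and CCNA2 -0.10 (-0.35 to 0.16). These intervals use a spread shared with the X-ray arrays. With C12 arrays alone in the fit, the unadjusted interval at 4h was -0.29 to -0.03 for CKS2 and -0.25 to -0.015 for CDK1. Those of the remaining genes spanned 0, and none of the 10 passed after adjustment. Estimates at 1h lay between -0.08 and 0.03. The change from 1h to 4h after C12 passed for none of the 10 (0.0% of all genes, 24 unadjusted).

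The C12 arrays were split by dye in all 10 genes. CKS2 gave -0.43, 0.52, -0.63 and 0.34 at 1h and -0.72, 0.43, -0.62 and 0.26 at 4h. CCNB1 gave -0.49, 0.64, -0.63 and 0.39 at 1h and -0.97, 0.61, -0.64 and 0.41 at 4h. CCNA2 gave -0.47, 0.48, -0.59 and 0.18 at 4h. In each, the arrays with the irradiated plate in Cy5 were above 0 and those in Cy3 below. The sign followed the labelled dye on all 8 C12 arrays for 10 of 10 genes, and for 44.2% of all genes. These signs hold after the sign rule, which was chosen with the C12 ratios known. The agreement of arrays with the same dye is thus partly built in by the rule. The fitted dye coefficient from the C12 arrays was 0.60 for CCNB1, 0.49 for CKS2, 0.40 for CCNA2 and 0.38 for CDK1; from the X-ray arrays it was 0.39, 0.05, 0.21 and -0.24. With the shared dye term removed, the median SD of the 10 genes over replicates was 0.164 and 0.196 in the C12 groups and 0.397 and 0.409 in the X-ray groups.

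The difference between C12 and X-rays passed for none of the 10 genes at 1h (0.0% of all genes, 146 at an unadjusted p under 0.05) or at 4h (0.0% of all genes, 329 unadjusted, limma). The falls after X-rays are therefore not shown to differ from the C12 values after correction. At 4h, C12 minus X-rays was 0.99 (interval 0.38 to 1.60) for CKS2, 0.70 (0.28 to 1.12) for CDC25C, 0.69 (0.26 to 1.12) for CCNB1 and 0.65 (0.28 to 1.01) for CCNA2. These 4 had an unadjusted p under 0.05 and an adjusted p of 0.9999. The median difference of the 10 genes was 0.35, and PKMYT1 alone was negative (-0.20, interval -0.73 to 0.32). Both times and both radiation qualities share the fitted spread and the dye term, and doses were not matched by any source used here.

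Other regulators of mitotic entry were read from lists compiled for their function, with earlier results of these data known. Of 16 measured regulators outside the 10 genes, 2 fell at 4h after X-rays and 0 rose, beside 0.0436% and 0.524% of all genes. These were PLK1, the polo-like kinase that activates CDC25C (-0.86, adjusted p = 0.0107 by limma), and AURKA, the Aurora kinase that activates PLK1 (-0.74, adjusted p = 0.0424). Of the 16, 15 had a negative estimate and the median was -0.29. Without replicate 2 there were 10 that fell, namely AURKA, BORA, CCNF, CCNH, CDC25A, CDK7, FBXO5, MASTL, MNAT1 and PLK1. In that setting 6.19% of all genes fell, and so did 4 of 12 housekeeping genes.

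Of 16 transcription factors and cofactors that control G2/M genes, 0 changed at 4h after X-rays; the smallest p belonged to E2F5 (-0.47), TFDP1 (0.29) and LIN52 (-0.25), a subunit of DREAM. Without replicate 2, E2F5 and NFYB of that list fell, beside 6.19% of all genes. In the G2 checkpoint list, 13 genes were measured. CDKN1A, which encodes the CDK inhibitor p21, had an estimate of 1.45 ± 0.14 (SE, n = 4) at 4h after X-rays, and GADD45A, a stress gene whose protein can inhibit CDK1, had 1.12 ± 0.23 (SE, n = 4). Both belong to the DNA damage response genes whose rise was used to choose the sign of the ratios, so their values are a description and no test of them is given. At 1h after X-rays CDKN1A stood at 1.02 and GADD45A at 1.53, and at 4h after C12 CDKN1A stood at 1.12. The remaining 11 genes of that list did not pass at 4h after X-rays. Without replicate 2 at 4h after X-rays, CHEK1, CHEK2, GTSE1 and TOPBP1 of the checkpoint list fell, beside the same 6.19% of all genes. Of 12 G1 and S phase genes, 0 changed, with PCNA at 0.37, CCNE1 at -0.26 and CCND1 at 0.31.

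Of 12 housekeeping genes, 6 epithelial markers and 14 markers of fibroblasts, endothelium and immune cells, 0 changed at 4h after X-rays. On the 4 arrays of that group the housekeeping median was 0.22, 0.39, -0.52 and 0.07, while the median of the 10 mitotic entry genes was -0.53, -0.29, -0.80 and -0.63. The median of the other cell type markers lay between -0.21 and 0.15 there. Without replicate 2, 4 of the 12 housekeeping genes fell (B2M, HPRT1, TBP and TFRC), EPCAM fell and PDGFRB rose. The part of such shifts in the falls of the 10 genes was not tested.

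Among themselves the genes did not vary alike. Across the 16 arrays with the dye term removed, Pearson's r was 0.95 for CCNB1 with CDC25C, 0.93 for CCNA2 with CDC25C and 0.91 for CCNA2 with CCNB1, and it was 0.80 for CCNB2 with CDK1, which share the high replicate 2. PKMYT1 correlated at -0.46 with CKS1B and at 0.73 with CDC25B. These values describe arrays that share groups, a dye design and the sign rule, and no test was made of them. The genes outside the list most like the mean of the 10, over 16 arrays and 18324 genes, were MTRFR (r = 0.965), PTTG2 (0.948), WDR82 (0.943), DENND5B (0.941), PIMREG (0.934), DTNBP1 (0.933), SLBP (0.932), DYRK3 (0.931), LOC105379499 (0.927) and ZNF639 (0.926). SLBP binds the stem-loop of histone mRNA. None of these passed at 4h after X-rays, where their estimates lay between -0.61 for SLBP and -0.33 for LOC105379499, and 42 genes in all had an r above 0.9. They were picked for likeness over the same 16 arrays, so estimates below 0 at that time follow in part from the choice.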

How the data were processed

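Gene expression was measured on 16 Agilent arrays of 2 colours, 4 per group. The deposited values are log2 ratios per feature, already processed by the authors; per the submitters' processing notes limma was used, with no version named. How background and normalization were treated, and the log base, are not stated, and base 2 is taken from limma's usual output. All arrays share the lowest (-3.38) and highest (2.93) value, and their SDs ran from 0.4142 to 0.4143. This points to a step that gave every array nearly the same spread of ratios, so fold sizes are relative to that spread. Precision is limited by how many arrays there are, as signals were not used. Of 45220 features, 31332 had 1 gene symbol, 93 several and 13795 none; symbols were updated through Entrez IDs for 31291 and kept for 41. Features of a symbol were averaged.

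The test was limma 3.58.1 in R 4.3.3 with 4 group means and 1 dye coefficient on 16 arrays (11 residual and 6.582 prior degrees of freedom), with Benjamini-Hochberg adjustment over 18334 genes in each of 8 comparisons. A script of the fit was tested on simulated data. Errors are standard errors of that fit. The 10 genes, the 7 gene lists and the sign rule were chosen with earlier results of these data known. Named are the 10 genes, list genes that passed or else the 3 with the smallest p at 4h after X-rays, and the 10 genes most like the mean of the 10. Alternatives covered the direction, the dye term, samples in the fit, array weights, feature averaging, centring, robust moderation, a replicate block and leaving out each array.

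Promoter windows came from RefSeq on GRCh38.p14. Same-numbered arrays of different groups correlated with a median of 0.0917 (-0.643 to 0.671, 24 pairs) in their deviations from group means. Differently numbered ones had a median of 0.00305 (-0.749 to 0.718, 72 pairs). With ranges this wide, pairing by number was neither shown nor excluded, and the main test did not use it.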

Additional observations from a re-analysis of the deposited data

Results flagged for a closer look

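In 40 groups of 4 arrays (10 genes in 4 groups), 3 single arrays lay far from the other three of their group by Dixon's ratio at the 95% level; chance gives about 1 in 20 groups. CDK1, the mitotic kinase, stood at 0.957 on replicate 2 at 4h after X-rays, with the other arrays between -1.02 and -0.79. WEE1, its inhibitory kinase, stood at -0.019 on the same array, with the others between -0.59 and -0.52. WEE1 also stood at 0.430 on replicate 1 at 1h after X-rays, with the others between -0.67 and -0.49. The cause was not tested.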

How the results depend on the processing

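Of 4 genes called at 4h after X-rays, the count became 0 as deposited, 0 turned by the labelled dye, 0 with no dye term, 1 (CKS2) with arrays of the same quality alone and 0 with array weights. In the inverse direction it was 4, all rising, with CCNA2 at 0.744, CCNB1 at 0.834, CDC25C at 0.715 and CKS2 at 1.15. Turned by the labelled dye, CCNA2 was 0.0522 and CKS2 0.225. With 1 array left out the count ran from 0 to 6. Without replicate 3 at 4h after X-rays the adjusted p of CCNA2 was 0.0583 by limma. The median of the 10 genes at that time was -0.162 as deposited, 0.154 turned by the labelled dye and 0.422 in the inverse direction, and it ran from -0.660 to -0.338 with 1 array left out. These are medians of plain array means, in which 3 arrays leave the dyes unbalanced; the fitted estimates without replicate 2 had a median of -0.75. The count for 4h minus 1h after X-rays ran from 0 to 5 with 1 array left out. The 3 settings chosen after seeing the data were RefSeq mRNA features alone, 1 dye coefficient per quality without replicate 2 at 4h after X-rays (8 genes at that time beside 8.75% of all genes, and 5 for 4h minus 1h beside 5.53%) and X-ray arrays alone without that array (0 genes). The replicate block (consensus correlation 0.1313) left the count at 4, and whether the numbers pair the arrays is not settled. Over all genes at 4h after X-rays, the test called 96 higher and 8 lower; without replicate 2 it called 187 and 1135, with 1 dye coefficient per quality 188 and 33, with that and without replicate 2 it called 378 and 1604, and with array weights 2 and 0. Of the recomputed counts at 4h after X-rays, 20 stayed within 1.5 times of the reported 4, 10 moved further and 1 reversed. Many of the 20 left out an array of another group and so kept all 4 arrays of this one. Leaving out replicates 1, 2, 3 and 4 of the group itself gave counts of 1, 6, 0 and 1. For 4h minus 1h after X-rays 2 moved from 0, and the counts of the other 6 comparisons stayed at 0. The cause of these changes was not tested beyond the fewer arrays or changed signs that each setting holds by construction.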
